A study of Mus musculus with 18 samples.

Results

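The 33 genes described here make, modify, regulate or export cholesterol and fatty acids. They were chosen by name as a list covering sterol synthesis (17 genes), the SREBP system that controls it (4 genes), fatty acid synthesis and desaturation (9 genes) and cholesterol export (3 genes). All 33 had a probe set that named only that gene, and they were set against the 19938 genes measured in the same way on 18 arrays. The rule that picks them uses gene names and no measured value, although the list was drawn up with earlier results of these data known.

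The arrays profiled RNA from mouse medulloblastomas, which are tumours of the cerebellum, and the question posed by the study was how 3 tumour subtypes named NG, GFD and GFI differ in their expressed genes. The tumours came from 2 mouse models, one named for Ptch, which restrains the Hedgehog pathway, and one for Smo, the signal transducer that Ptch keeps inactive. The groups were GFD-Smo;GFAP-cre (n = 4), NG-Smo;Atoh1-CreER (n = 4), GFD-Ptch (n = 2), GFI-Ptch (n = 4) and NG-Ptch (n = 4), and the Smo groups are written GFD-Smo and NG-Smo below. GFAP-cre places the recombinase under a promoter used by astroglia and neural progenitors, whereas Atoh1-CreER is an inducible recombinase expressed from Atoh1, a factor of granule neuron progenitors. Every GFD tumour of the Smo model carried GFAP-cre and every NG tumour Atoh1-CreER, so subtype and Cre driver cannot be told apart there. The meaning of NG, GFD and GFI, the alleles, the strain and the ages of the mice are not given in the sources used here. GFI-Ptch replicate 4 had developed out of an earlier tumour and was carried by a female NSG host, an immunodeficient strain, and is referred to as the transplanted tumour.

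Cholesterol is built from acetyl-CoA through mevalonate, farnesyl pyrophosphate, squalene and lanosterol. When sterols are scarce, Scap escorts the SREBP factors, encoded by Srebf1 and Srebf2, to the Golgi for cleavage, while Insig1 retains them when sterols are plentiful. The cleaved factors switch on genes of sterol and fatty acid synthesis, and excess sterol acts through LXR receptors to raise the exporters Abca1 and Abcg1. The brain makes its own cholesterol because lipoproteins of the blood do not cross into it, astrocytes pass lipid to neurons on particles that carry Apoe, and cholesterol itself is a ligand of Smo.

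Levels are log2 values as deposited, and a difference of group means is a log2 change. The test was limma's, fitted over all 19938 genes, and genes with an adjusted p below 0.05 are referred to as called. The members lay between 7.14 and 13.31 on all arrays, above the lower quartile of each array (6.21 to 6.382). As a check of the labelled tissue, 10 markers of granule neuron progenitors, the cells these tumours resemble, averaged 11.5 to 12.02 per array. Transcripts of Y-linked genes were present in 2 of 2 GFD-Ptch arrays and 0 of 4 NG-Ptch arrays, so sex and subtype cannot be told apart between those groups. The Y-linked genes went against the stated gender in 3 of 13 labelled arrays, namely the transplanted tumour and GFD-Smo replicates 2 and 3. The arrays come from bulk tissue, in which fewer cells of a type and less RNA per cell cannot be told apart. Whether each replicate was a different animal is not stated, and p-values therefore reflect the spread among these samples alone, which may be technical.

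Promoters are shown for the sterol and fatty acid genes called higher in GFD-Smo than in NG-Smo, where the RefSeq promoter table has an entry. That table is built on GRCm38.p6 and holds windows of 300 bases around each start, mostly upstream. These genes were picked because they were called. Capitals mark matches to the CCAAT box (CCAAT, or ATTGG on the opposite strand), the GC box (GGGCGG or CCGCCC) and the core of the sterol regulatory element (TCACNCCAC). Hmgcs1 lies at chr13:119690101-119690400 (plus strand), Cyp51 at chr5:4104648-4104947 (minus strand), Elovl5 at chr9:77917115-77917414 (plus strand) and Fads2 at chr19:10101454-10101753 (minus strand), each given 5′ to 3′ along its gene.
Hmgcs1: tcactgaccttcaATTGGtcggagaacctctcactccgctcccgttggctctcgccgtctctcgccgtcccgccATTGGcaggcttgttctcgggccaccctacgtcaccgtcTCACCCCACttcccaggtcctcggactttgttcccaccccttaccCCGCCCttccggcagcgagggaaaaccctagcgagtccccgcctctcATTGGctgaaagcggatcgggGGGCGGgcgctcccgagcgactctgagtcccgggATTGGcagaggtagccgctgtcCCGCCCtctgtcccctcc
Cyp51: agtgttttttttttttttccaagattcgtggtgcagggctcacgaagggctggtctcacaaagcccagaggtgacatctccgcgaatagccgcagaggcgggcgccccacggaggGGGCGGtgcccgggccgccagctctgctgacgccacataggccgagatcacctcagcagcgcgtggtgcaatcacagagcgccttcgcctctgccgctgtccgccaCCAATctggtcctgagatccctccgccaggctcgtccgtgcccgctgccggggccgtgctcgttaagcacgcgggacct
Elovl5: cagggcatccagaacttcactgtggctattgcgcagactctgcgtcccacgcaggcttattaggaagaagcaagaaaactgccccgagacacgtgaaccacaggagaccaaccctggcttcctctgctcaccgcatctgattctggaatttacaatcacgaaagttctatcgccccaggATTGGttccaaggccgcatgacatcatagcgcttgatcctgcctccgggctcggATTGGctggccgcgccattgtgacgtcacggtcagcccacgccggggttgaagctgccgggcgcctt
Fads2: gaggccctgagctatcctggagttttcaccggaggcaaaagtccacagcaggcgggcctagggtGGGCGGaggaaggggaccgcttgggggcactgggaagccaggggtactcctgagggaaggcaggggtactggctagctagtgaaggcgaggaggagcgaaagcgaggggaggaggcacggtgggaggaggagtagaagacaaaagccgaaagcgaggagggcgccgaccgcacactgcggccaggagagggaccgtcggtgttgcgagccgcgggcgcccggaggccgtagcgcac

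The Hmgcs1 stretch held 4 CCAAT boxes, 3 GC boxes and 1 sterol regulatory element core, whose first base lay at -137 from the start. Cyp51 held 1 CCAAT box and 1 GC box, Elovl5 held 2 CCAAT boxes and 0 GC boxes, and Fads2 held 0 CCAAT boxes and 1 GC box. No matches overlapped. Over both strands, the CCAAT box was present in 20 of the 26 members with an entry (76.9%), against 41.7% of 15614 measured genes with an entry. By role it was found in 14 of 14 sterol synthesis genes, 3 of 4 SREBP genes, 3 of 6 fatty acid genes and 0 of 2 export genes. A gene with several windows was counted for a motif if any of them held a match. For Dhcr7 the CCAAT box lay in the window at chr7:143829964-143830263, and the windows starting at 143822917 and 143823149 lacked it. The GC box was present in 20 of 26 members (76.9%), against 52.9% of measured genes. The sterol regulatory element core was present in 1 of 26 members (3.85%), namely Hmgcs1, against 1.4% of measured genes. The E-box TCACGTGA was in 0 of 26 members, against 1.52% of measured genes. A match describes letters in these windows and says nothing of binding. Scd1, Scd2, Fads1, Fdft1, Sqle, Fdps and Abcg1 were not among the entries used here.

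Many of the sterol synthesis genes were high or low together on some of the 18 arrays, as the map of all 33 genes shows. No correlation among them was computed. Mvd and Tm7sf2 did not follow in GFD-Smo, where they averaged 9.11 and 8.74, against 9.38 and 8.94 in NG-Ptch.

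**Figure D1:**
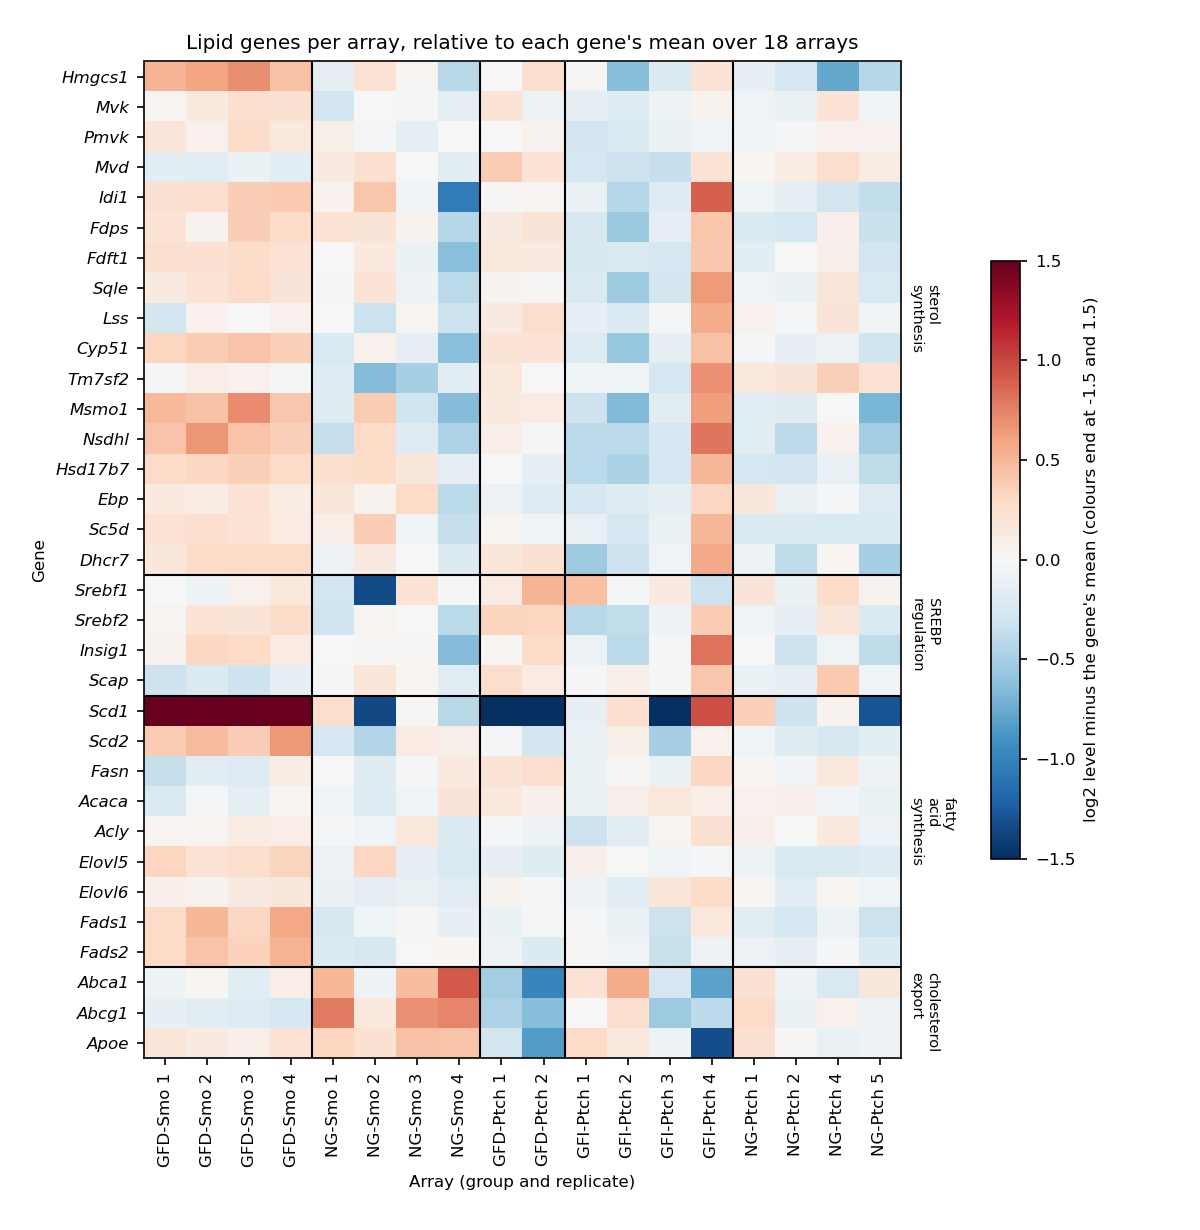
Each cell is the log2 level of 1 gene (row, grouped by role) on 1 array (column, grouped by tumour group and numbered by replicate) minus that gene's mean over 18 arrays, with red above and blue below the mean. GFD-Smo arrays are red across most sterol genes and for Scd1, Scd2, Fads1 and Fads2, GFI-Ptch replicate 4 is red across the sterol genes except Pmvk, and NG-Smo replicate 4 is blue in most of them.

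Arrays that stood apart for these genes are described first. The mean level of the 17 sterol synthesis genes was 9.92, 9.97, 10.04 and 9.96 in GFD-Smo replicates 1 to 4, against 9.71, 9.85, 9.68 and 9.35 in NG-Smo. In the Ptch tumours it was 9.84 and 9.81 in GFD-Ptch, 9.51, 9.37, 9.56 and 10.19 in GFI-Ptch, and 9.66, 9.6, 9.74 and 9.49 in NG-Ptch replicates 1, 2, 4 and 5. GFD-Smo lay wholly above NG-Smo and GFD-Ptch wholly above NG-Ptch, while the GFI-Ptch arrays ran from near the bottom of the range to the highest value of all.

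The transplanted tumour was the highest GFI-Ptch array in 17 of 17 sterol synthesis genes, against 30.7% of all genes. It was the highest of all 18 arrays in 12 of the 17, against 13.2% of all genes. The median gap to the mean of the other 3 GFI-Ptch arrays was 0.73 (0.13 to 1.14). Idi1, which isomerises the isoprene unit, and Nsdhl, a decarboxylating sterol dehydrogenase, shared the widest gap at 1.14. Pmvk, phosphomevalonate kinase, had the narrowest at 0.13. The SREBP retention factor Insig1 reached 11.63 in the transplanted tumour, against 10.72, 10.41 and 10.78 in the other GFI-Ptch tumours, and Srebf2 reached 10.88 against 10.08, 10.12 and 10.42. Scap was also highest there (10.77, against 10.34 to 10.45), whereas Srebf1 was lowest there (10.63, against 10.94 to 11.4). The export side lay opposite to the sterol synthesis genes in the same tumour. Apoe was at 11.54, against 13.15, 13.02 and 12.79 in the other GFI-Ptch arrays, and Abca1 was at 9.80, against 10.82, 11.16 and 10.35. For Abcg1 the transplanted tumour (9.48) was inside the range of the others (9.33 to 10.13). These are 1 array against 3 and carry no test. In this array the 9 muscle markers averaged 10.14, against at most 8.04 on every other array, and the 10 astrocyte markers averaged 8.42, the lowest of all arrays. Their part in these values was not tested.

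NG-Smo replicate 4 lay at the opposite end. It was the lowest NG-Smo array in 13 of 17 sterol synthesis genes, against 27.1% of all genes, with a median gap of -0.45 to the mean of the other 3. Idi1 was at 9.11 there, against 10.22, 10.57 and 10.11 in the other NG-Smo arrays, a gap of -1.20. Insig1 was at 10.16, against 10.82, 10.83 and 10.83. Its export genes were not low, and Abca1 was at its highest there (11.53, against 11.11, 10.53 and 11.07).

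**Figure D2:**
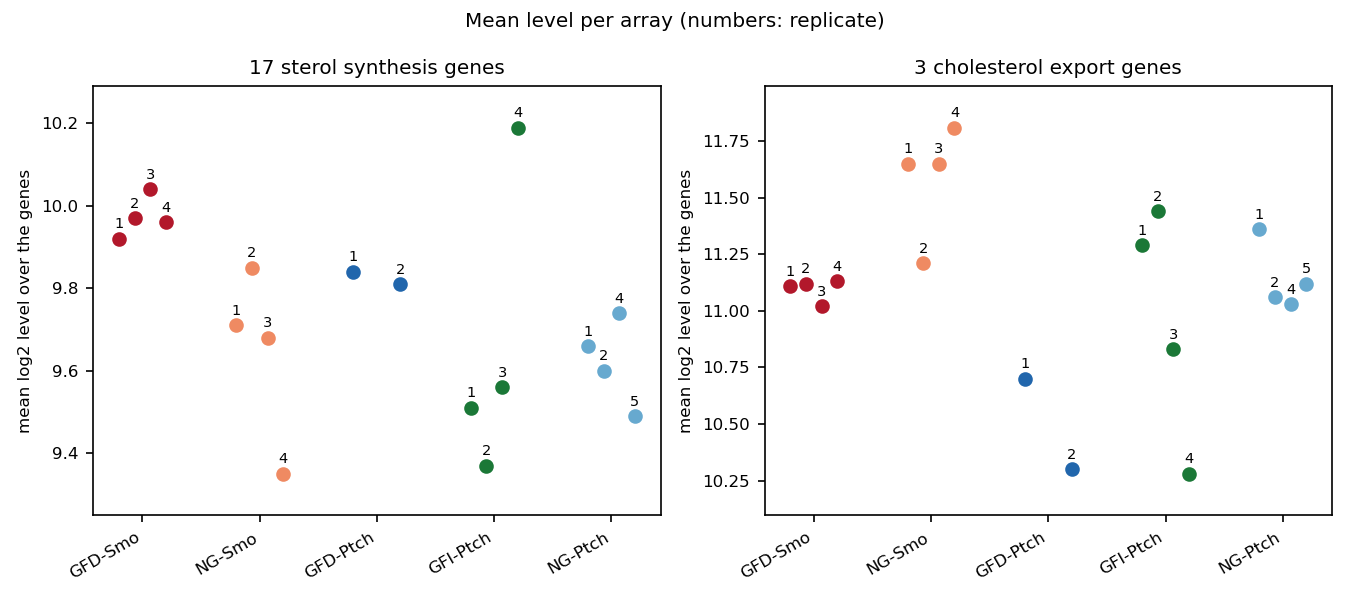
Points are arrays, numbered by replicate, at their mean log2 level over 17 sterol synthesis genes (left) and over 3 cholesterol export genes (right), with the 5 tumour groups along the horizontal axis. GFI-Ptch replicate 4 is the highest array on the left (10.19) and the lowest on the right (10.28), and NG-Smo replicate 4 is the lowest on the left (9.35) and the highest on the right (11.81).

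In the Smo model, GFD tumours were set against NG tumours. In GFD-Smo tumours 8 of the 33 genes were called, 7 higher and 1 lower, where 5.31% of all genes were called (2.81% higher and 2.49% lower). The 7 that rose were Hmgcs1 and Cyp51 of sterol synthesis and Scd1, Scd2, Elovl5, Fads1 and Fads2 of fatty acid desaturation and elongation, and the exporter Abcg1 fell. The median change was 0.28 over the members and -0.01 over all genes, with 26 of 33 members above 0. In 15 of 33 members every GFD-Smo array lay above every NG-Smo array (45.5%, against 5.99% of all genes), and in 2 every array lay below (6.06%, against 6.59%).

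The fatty acid genes held the largest change. Scd1, at chr19:44394450-44407709, encodes the stearoyl-CoA desaturase that makes monounsaturated fatty acids. Its level was 11.03, 10.97, 10.96 and 11.37 in GFD-Smo tumours, against 9.53, 7.92, 9.28 and 8.85 in NG-Smo tumours. All GFD-Smo arrays were above all NG-Smo arrays, and they were also the tighter group (SD 0.19 against 0.71). Scd1 was 4.55-fold higher in GFD-Smo, a log2 change of 2.19 ± 0.471 (SE; adjusted p = 0.0121).

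Scd2, the desaturase form prominent in brain, lies on the same chromosome at chr19:44293676-44306864. It read 12.76, 12.85, 12.74 and 13.02 in GFD-Smo, against 12.12, 11.93, 12.50 and 12.46 in NG-Smo, again without overlap. Its change was 0.59 ± 0.136 (SE; adjusted p = 0.0181). The paired desaturases Fads1 (chr19:10182877-10196874) and Fads2 (chr19:10062765-10101503) introduce double bonds into polyunsaturated fatty acids. Fads1 read 11.72, 11.94, 11.75 and 12.02 in GFD-Smo, against 11.20, 11.37, 11.45 and 11.32 in NG-Smo. Fads2 read 12.23, 12.36, 12.28 and 12.45 in GFD-Smo, against 11.73, 11.69, 11.94 and 11.96 in NG-Smo. In both genes all GFD-Smo arrays were above all NG-Smo arrays. Fads1 rose by 0.52 ± 0.095 (SE; adjusted p = 0.00377) and Fads2 by 0.50 ± 0.082 (SE; adjusted p = 0.00177).

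Elovl5 elongates the products of these desaturases. Its level was 12.02, 11.90, 11.96 and 12.03 in GFD-Smo, against 11.61, 12, 11.57 and 11.46 in NG-Smo. The NG-Smo replicate 2 value lay within the GFD-Smo range, so this was the called gene whose groups overlapped. The change was 0.32 ± 0.087 (SE; adjusted p = 0.0453). The other 4 fatty acid genes were not called. Elovl6, which elongates saturated chains, had a change of 0.24 (adjusted p = 0.108) with no overlap, while Fasn, the fatty acid synthase, stood at -0.13, Acaca, acetyl-CoA carboxylase, at -0.06 and Acly, ATP citrate lyase, at 0.11. The 5 calls were thus in desaturation and elongation and none was in the core steps held by Fasn, Acaca and Acly.

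Of the 17 sterol synthesis genes 2 were called and both rose, while 16 of 17 changes were above 0 with a median of 0.28. Hmgcs1, the HMG-CoA synthase at the head of the mevalonate pathway, read 11.34, 11.42, 11.53 and 11.27 in GFD-Smo, against 10.69, 11.04, 10.87 and 10.41 in NG-Smo. Cyp51, the lanosterol demethylase, read 10.19, 10.25, 10.29 and 10.22 in GFD-Smo, against 9.64, 9.93, 9.74 and 9.24 in NG-Smo. Neither gene overlapped between the groups. Hmgcs1 changed by 0.64 ± 0.176 (SE; adjusted p = 0.0452) and Cyp51 by 0.60 ± 0.165 (SE; adjusted p = 0.0480), both close to the threshold.

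In 7 further sterol genes the groups did not overlap although the test was not passed. The widest of these changes were in Msmo1, the sterol methyl oxidase (0.70, adjusted p = 0.121), and Nsdhl (0.65, adjusted p = 0.130). Tm7sf2, a sterol reductase (0.41), Fdft1, the squalene synthase (0.38), Dhcr7, the reductase of the last step (0.30), Mvk, mevalonate kinase (0.28), and Hsd17b7, a sterol ketoreductase (0.17), were the others. Idi1 (0.46), Sqle, the squalene epoxidase (0.27), Fdps, the farnesyl pyrophosphate synthase (0.22), Pmvk (0.20), Sc5d, a sterol desaturase (0.18), Lss, the lanosterol synthase (0.11), and Ebp, a sterol isomerase (0.11), overlapped between the groups. Mvd, mevalonate decarboxylase, was the 1 sterol gene below 0 (-0.19, adjusted p = 0.451). Nsdhl and Ebp lie on the X chromosome.

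The 4 SREBP genes gave 0 calls. Srebf1 (0.39), Srebf2 (0.34) and Insig1 (0.34) were above 0 and Scap was below it (-0.25, adjusted p = 0.332). Insig1 alone of these did not overlap between the groups, with 10.86, 11.12, 11.11 and 10.93 in GFD-Smo and 10.82, 10.83, 10.83 and 10.16 in NG-Smo. Srebf1 was low in NG-Smo replicate 2 (9.61, against 10.68, 11.16 and 10.92 in the rest of that group).

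All 3 export genes lay below 0 and 1 was called. Abcg1, which loads cholesterol onto lipoproteins, read 9.75, 9.72, 9.68 and 9.62 in GFD-Smo, against 10.66, 10.03, 10.56 and 10.61 in NG-Smo, with no overlap. It fell by 0.77 on the log2 scale, to 0.585 of its NG-Smo level (SE 0.162; adjusted p = 0.0102). Apoe, the carrier of lipid particles, read 13.05, 13, 12.96 and 13.08 in GFD-Smo, against 13.19, 13.09, 13.31 and 13.29 in NG-Smo. These arrays did not overlap either, but the change of -0.20 was not called (adjusted p = 0.866). Abca1, which starts lipid transfer to apolipoproteins, changed by -0.48 (adjusted p = 0.372) and overlapped.

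**Figure D3:**
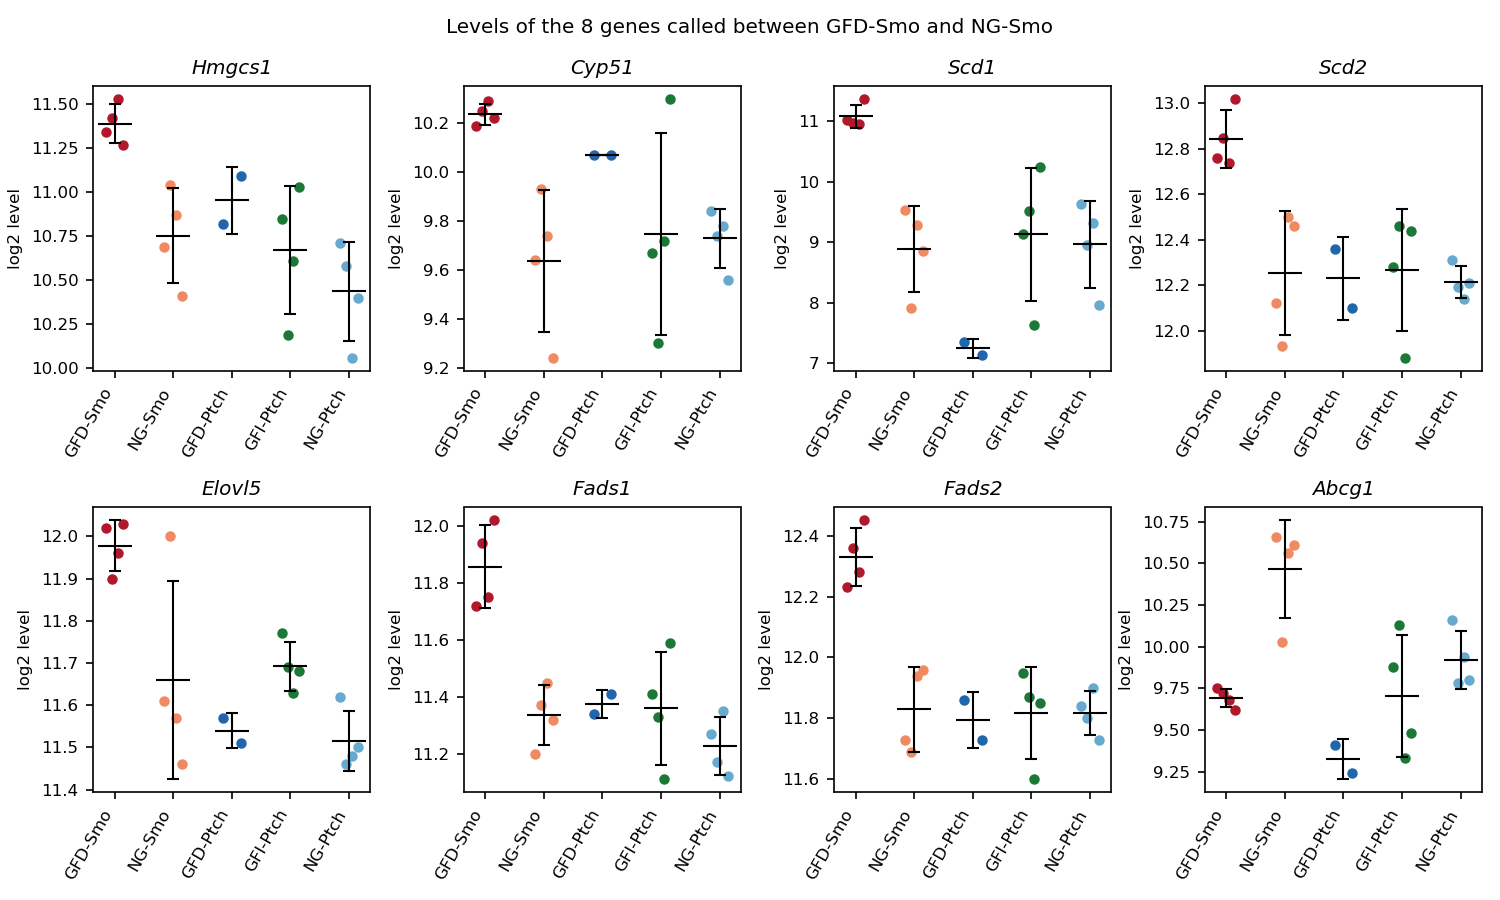
Each panel plots the log2 level of 1 of the 8 genes called between GFD-Smo and NG-Smo, with arrays as points and the mean and SD of each group as bars (n = 4, and n = 2 for GFD-Ptch). GFD-Smo points lie above all NG-Smo points except for Elovl5, where NG-Smo replicate 2 overlaps, and for Abcg1, where GFD-Smo lies below.

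Marker genes of other cells differed between the same groups. Of 10 astrocyte markers 6 were called higher in GFD-Smo, and their mean was 10.99 to 11.1 on GFD-Smo arrays against 9.53 to 9.91 on NG-Smo arrays. Of 12 microglia and macrophage markers 4 were called lower, with means of 9.23 to 9.44 in GFD-Smo and 9.71 to 9.8 in NG-Smo. Endothelial markers gave 1 call higher of 8, granule neuron progenitor and proliferation markers 1 call lower each (of 10 and 7), and neuron, oligodendrocyte, oligodendrocyte progenitor and muscle markers gave 0. The muscle markers averaged 7.77 to 8.04 in GFD-Smo and 7.15 to 7.69 in NG-Smo, without overlap. The GFD-Smo arrays were highest in both Scd1 and the astrocyte mean. Both GFD-Ptch arrays were low in both, with Scd1 at 7.36 and 7.14 and astrocyte means of 8.72 to 8.83. The transplanted tumour had the lowest astrocyte mean (8.42) with a Scd1 level of 10.24. The part of these cells in the lipid gene changes was not tested.

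**Figure D4:**
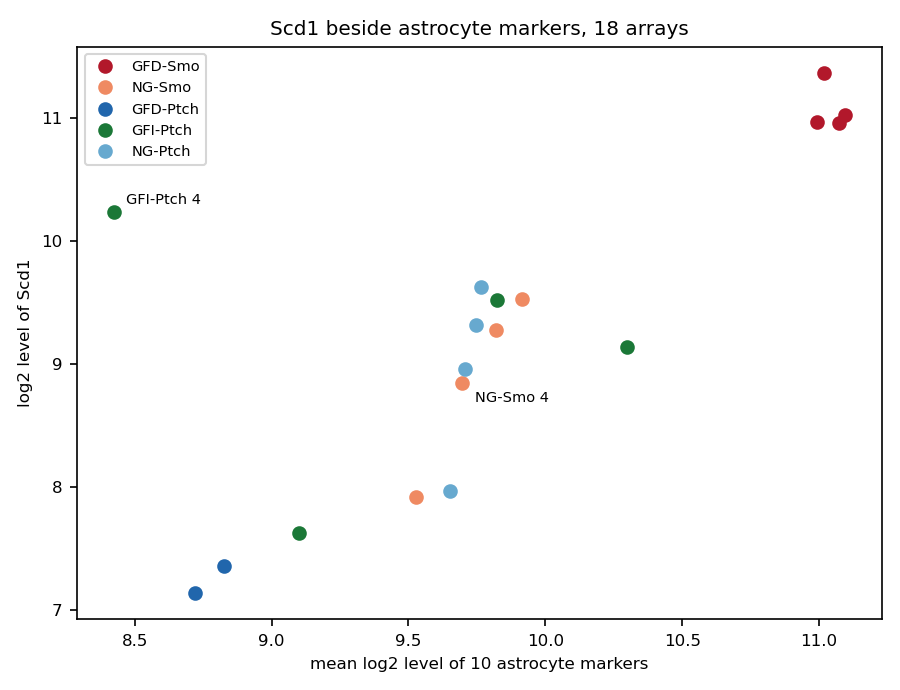
Each point is 1 of 18 arrays, with the mean log2 level of 10 astrocyte markers on the horizontal axis and the log2 level of Scd1 on the vertical axis, coloured by group. GFD-Smo arrays lie at the upper right, both GFD-Ptch arrays at the lower left, and GFI-Ptch replicate 4 at the upper left (8.42 and 10.24).

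Of 30 other genes of the pathway that were measured, 0 were called between GFD-Smo and NG-Smo, and 23 were above 0 with a median of 0.08. The largest changes were in the elongase Elovl7 (0.69, adjusted p = 0.223) and in Lcat, which esterifies cholesterol on lipoproteins (0.63, adjusted p = 0.544). The count of 8 called members ranged from 4 to 12 when any 1 array was left out, and the share of all genes called from 3.22% to 7.79%. The member count was 12 without the transplanted tumour, when 7.79% of all genes were called, and 5 without NG-Smo replicate 4, when 5.17% were. Of the 17 sterol genes 5 were called without the transplanted tumour and 0 without NG-Smo replicate 4. Over 29 alternatives Fads2 stayed called in all, whereas Fads1 was lost in 1, Scd1 and Abcg1 in 2 each, Scd2 in 5, Hmgcs1 in 18, Cyp51 in 20 and Elovl5 in 23. With gender label as a covariate, over the 13 arrays that have one, Fads2 was the single call, and 1.96% of all genes were called. The gender label went against the Y-linked genes in GFD-Smo replicates 2 and 3. With the Y-linked level as a covariate, over all 18 arrays, 5 members and 4.57% of all genes were called. Without the 3 arrays at odds with their label, 2 members and 2.18% of all genes were. With each array centred on its median, 5 members were called and 2.44% of all genes were called higher and 3.5% lower.

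GFD and NG tumours of the Ptch model were compared next. In GFD-Ptch 0 of 33 members were called, and 0.01% of all genes (2 genes) were, while 3375 genes had an unadjusted p under 0.05. By role, the sterol genes had a median of 0.21 with 15 of 17 above 0, the 4 SREBP genes a median of 0.27 with 4 of 4 above 0, and the 3 export genes a median of -0.59 with 3 of 3 below 0, against a median of 0.04 over all genes. In 11 members both GFD-Ptch arrays lay above all NG-Ptch arrays (33.3%, against 20.6% of all genes) and in 5 below (15.2%, against 14%).

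Scd1 had the largest change and lay below 0, opposite to the Smo tumours. It read 7.36 and 7.14 in GFD-Ptch, against 9.63, 8.96, 9.32 and 7.97 in NG-Ptch. The GFD-Ptch arrays were the lowest of all 18, and the change was -1.72 ± 0.577 (SE; adjusted p = 0.205). Abca1 read 10.09 and 9.62 in GFD-Ptch, against 10.83, 10.53, 10.38 and 10.78 in NG-Ptch, with a change of -0.78 (adjusted p = 0.245). Abcg1 read 9.41 and 9.24 in GFD-Ptch, against 10.16, 9.78, 9.94 and 9.80 in NG-Ptch, with a change of -0.59 (adjusted p = 0.205). Neither exporter overlapped between the groups, and nor did Apoe (-0.57, adjusted p = 0.342).

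On the sterol side Hmgcs1 (0.52), Dhcr7 (0.44), Msmo1 (0.39), Cyp51 and Fdps (0.34 each), Idi1 (0.24), Fdft1 (0.23) and Sc5d (0.21) had both GFD-Ptch arrays above all NG-Ptch arrays, with adjusted p of 0.261 or more. Tm7sf2 had both below (-0.16). Srebf2 (0.39), Insig1 (0.34) and Fasn (0.22) were also fully above. Scd2 (0.02), Elovl5 (0.03) and Fads2 (-0.02), which had risen in GFD-Smo, lay near 0 here, and Fads1 was at 0.15. Among the other pathway genes 0 of 30 were called, and Lcat (-1.45) and the malic enzyme Me1 (-0.35) had the largest changes. The astrocyte markers averaged 8.72 to 8.83 in GFD-Ptch and 9.65 to 9.76 in NG-Ptch, and 0 of 10 were called. The microglia and macrophage markers averaged 8.65 to 8.98 in GFD-Ptch and 9.09 to 9.55 in NG-Ptch, with 0 of 12 called. The oligodendrocyte progenitor markers had the largest median change of the marker lists (-1.0) and averaged 8.86 to 9.02 in GFD-Ptch and 9.81 to 10.29 in NG-Ptch. The endothelial markers lay the other way, at 8.32 to 8.42 in GFD-Ptch and 7.78 to 8.26 in NG-Ptch. The oligodendrocyte markers averaged 7.78 on both GFD-Ptch arrays and 7.82 to 8.51 in NG-Ptch. None of these 5 lists overlapped between the groups, 0 of their genes were called, and their part was not tested. Without the transplanted tumour 0 members were called, and 0.722% of all genes were.

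**Figure D5:**
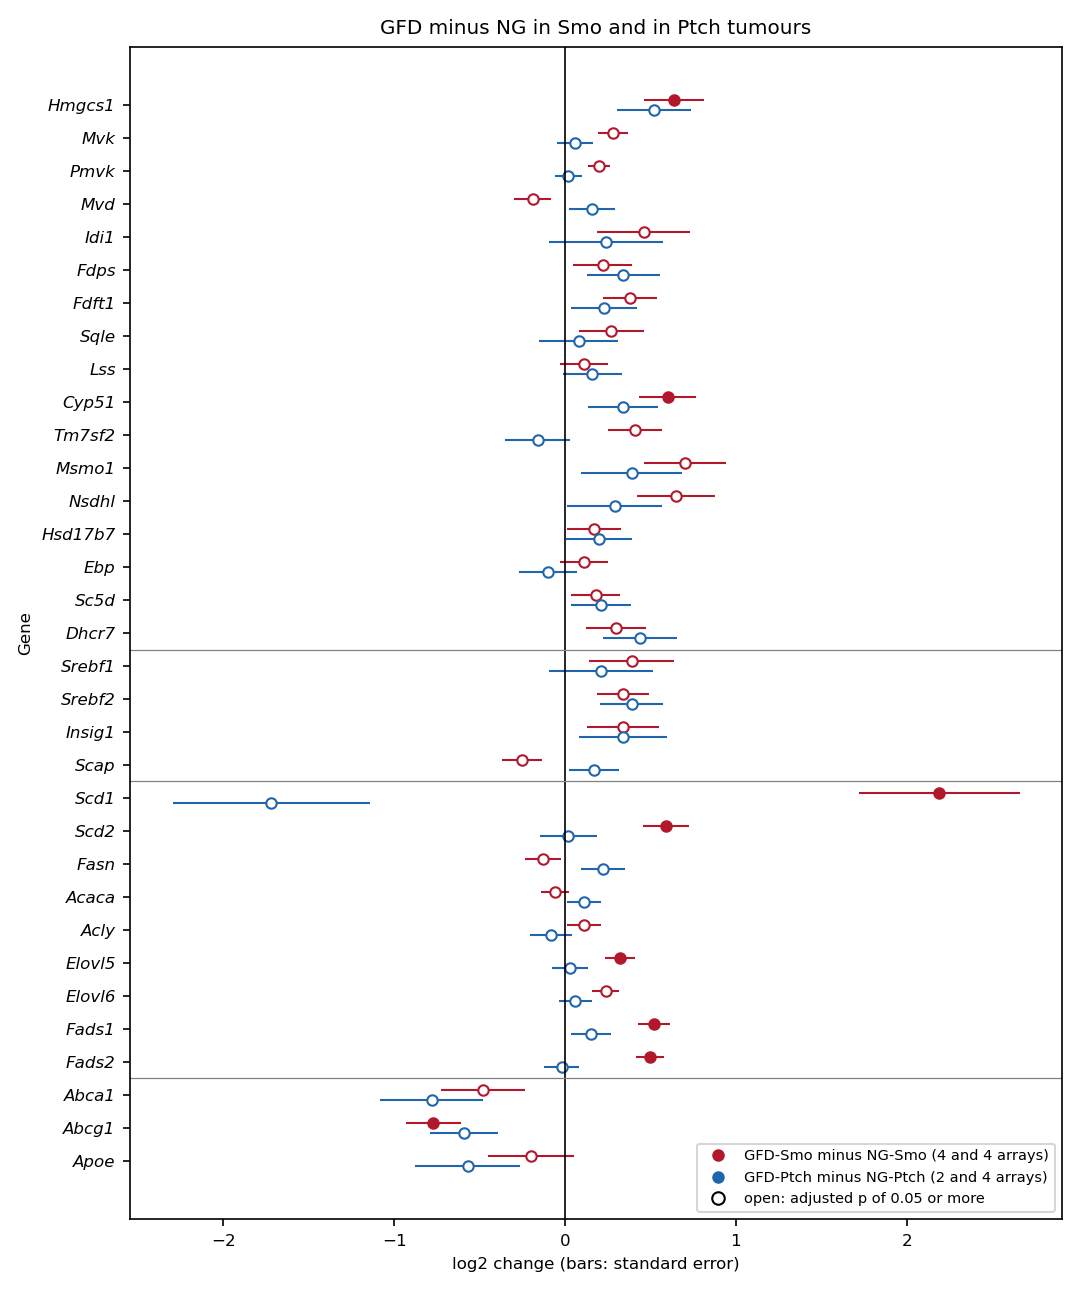
Points are log2 changes of the 33 genes, with the SE as bars, for GFD-Smo minus NG-Smo (red) and GFD-Ptch minus NG-Ptch (blue), and filled points are genes called at an adjusted p under 0.05. Most sterol genes lie right of 0 in both models, the 3 export genes lie left of 0 in both, and Scd1 lies at 2.19 in Smo and at -1.72 in Ptch tumours.

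The difference of the GFD minus NG change between the models was tested as an interaction. Of the 33 members 2 were called, where 3.81% of all genes were (2.4% more positive in the Smo model and 1.4% more negative). The difference for Scd1 was 3.90 ± 0.744 (SE; adjusted p = 0.0101) and for Fads2 0.52 ± 0.130 (SE; adjusted p = 0.0375), in both cases more positive in the Smo model. The 17 sterol genes had 0 calls and a median difference of 0.18, and the 3 export genes had 0 calls and a median of 0.29, against -0.06 over all genes. Of the other pathway genes Dhdds, which makes dolichol, was called (0.57). Of the astrocyte markers 8 of 10 were called in the same direction as Scd1, as were 2 of 10 differentiated neuron markers. The granule neuron progenitor, microglia and macrophage, and proliferation lists had 1 call each in the opposite direction, the other 4 lists had 0, and their part was not tested. With each array centred on its median, 2.13% of all genes were called more positive in the Smo model and 3.91% more negative. The Scd1 difference was not called without GFD-Ptch replicate 2 (3.80) or with gender label as a covariate (4.75). Those 2 fits keep 1 GFD-Ptch array and 1 NG-Ptch array, respectively. With the Y-linked level as a covariate it was 3.56 ± 0.918 (SE; adjusted p = 0.0792) and also not called, where 0.797% of all genes were called. The Fads2 difference was lost in 14 of 29 alternatives. Without the transplanted tumour 3 members were called, with 6.44% of all genes.

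GFD tumours of both models were also set against each other. In GFD-Smo 6 of 33 members (18.2%) were called against GFD-Ptch, 5 higher and 1 lower. This share was close to the 15.6% of all genes that were called (8.5% higher and 7.1% lower). All GFD-Smo arrays lay above both GFD-Ptch arrays in 21 members (63.6%, against 23.4% of all genes) and below them in 6 (18.2%, against 33.7%). The 5 that rose were Scd1, Scd2, Fads1, Fads2 and Elovl5. Scd1 read 10.96 to 11.37 in GFD-Smo and 7.36 and 7.14 in GFD-Ptch, a 14.2-fold difference (log2 change 3.83 ± 0.577 SE; adjusted p = 0.000478). It was called in all 29 alternatives. Fads2 rose by 0.54 (12.23 to 12.45 in GFD-Smo, against 11.86 and 11.73 in GFD-Ptch; adjusted p = 0.00238) and Scd2 by 0.61 (12.74 to 13.02 in GFD-Smo, against 12.36 and 12.10 in GFD-Ptch; adjusted p = 0.0226). Fads1 rose by 0.49 (11.72 to 12.02 in GFD-Smo, against 11.34 and 11.41 in GFD-Ptch; adjusted p = 0.0117) and Elovl5 by 0.44 (11.90 to 12.03 in GFD-Smo, against 11.57 and 11.51 in GFD-Ptch; adjusted p = 0.0130).

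Mvd fell in GFD-Smo. It read 9.09, 9.08, 9.16 and 9.10 there, against 9.63 and 9.46 in GFD-Ptch, a change of -0.43 (adjusted p = 0.0414), and it was lost in 11 of 29 alternatives. The 3 export genes had 0 calls, with GFD-Smo wholly above GFD-Ptch in 3 of 3 and a median change of 0.71. Of 30 other pathway genes 7 were called, all higher in GFD-Smo: Lcat (1.93), Me1 (1.51), which supplies NADPH, Elovl7 (1.26), the apolipoprotein Apoc1 (1.12), the ubiquitin ligase Mylip (0.61), Acat1 (0.47) and Hsd17b12 (0.40), an elongation reductase. Of the astrocyte markers 9 of 10 were called higher (10.99 to 11.1 in GFD-Smo, against 8.72 to 8.83 in GFD-Ptch), as were 4 of 8 oligodendrocyte progenitor markers (10.15 to 10.35 in GFD-Smo, against 8.86 to 9.02 in GFD-Ptch) and 5 of 12 microglia and macrophage markers (9.23 to 9.44 in GFD-Smo, against 8.65 to 8.98 in GFD-Ptch). Oligodendrocyte markers gave 2 calls higher of 9 and endothelial markers 1 of 8, and differentiated neuron markers gave 2 higher and 1 lower of 10. Granule neuron progenitor markers gave 2 calls lower of 10 (11.66 to 11.77 in GFD-Smo, against 11.91 to 11.98 in GFD-Ptch), proliferation markers 1 lower of 7, and muscle markers 0 of 9. Their part was not tested. The count of called members was 11 without the transplanted tumour, with 21.9% of all genes called, 3 without GFD-Ptch replicate 1 (8.6% of all genes) and 1 without GFD-Ptch replicate 2 (5% of all genes). With each array centred on its median it was 9 (27.3%, against 34.2% of all genes), 5 higher and 4 lower. In that fit 6.95% of all genes were called higher and 27.2% lower. This comparison shares its GFD-Smo and GFD-Ptch arrays with those above and is no independent evidence.

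GFI tumours of the Ptch model showed no call in these genes. Against NG-Ptch, 0 of 33 members and 0% of all genes were called by limma, with 1701 genes at an unadjusted p under 0.05. The median change was 0.02 over the members and over all genes. The 3 largest changes were in Mvd, Idi1 and Insig1. Mvd read 8.99, 8.94, 8.91 and 9.46 in GFI-Ptch, against 9.28, 9.37, 9.52 and 9.36 in NG-Ptch (-0.31, adjusted p = 0.433). Idi1 read 10.05, 9.73, 9.96 and 11.05 in GFI-Ptch, against 10.09, 10.02, 9.88 and 9.78 in NG-Ptch (0.26, adjusted p = 0.818). Insig1 read 10.72, 10.41, 10.78 and 11.63 in GFI-Ptch, against 10.81, 10.50, 10.75 and 10.43 in NG-Ptch (0.26, adjusted p = 0.763).

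In each of these 3 genes the transplanted tumour, given last, was the highest GFI-Ptch array, and in all 3 the groups overlapped. Without it Idi1 changed sign to -0.03, the sterol median moved to -0.14 with 15 of 17 genes below 0, against 0.01 with 11 of 17 above 0 when it was kept, and 0 members were called, with 0.0251% of all genes called. Elovl5 was the 1 member with all GFI-Ptch arrays above all NG-Ptch arrays (0.18, adjusted p = 0.609; 3.03% of members, against 2.05% of all genes), and 0 members had all below, against 2.8% of all genes. Scd1 ranged more widely in GFI-Ptch (9.14, 9.52, 7.63 and 10.24) than in any other group, with an SD of 1.10. Of the other pathway genes 0 of 30 were called, with Lcat (-0.67) and Abca7 (-0.31), a lipid transporter, the largest changes. The astrocyte markers averaged 8.42 to 10.3 in GFI-Ptch and 9.65 to 9.76 in NG-Ptch, with 0 of 10 called. The oligodendrocyte progenitor markers averaged 7.76 to 9.81 in GFI-Ptch and 9.81 to 10.29 in NG-Ptch (median change -1.16), and the differentiated neuron markers averaged 9 to 9.55 in GFI-Ptch and 9.63 to 10.13 in NG-Ptch (median change -0.54). The muscle markers averaged 7.11 to 10.14 in GFI-Ptch, with the transplanted tumour highest, and 7.11 to 7.35 in NG-Ptch (median change 0.81). None of these markers was called, and their part was not tested.

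Against GFD-Ptch, GFI-Ptch had 0 of 33 members called, where 0.00502% of all genes (1 gene) were called and 1952 had an unadjusted p under 0.05. Scd1 stood at 1.88 (9.14, 9.52, 7.63 and 10.24 in GFI-Ptch, against 7.36 and 7.14 in GFD-Ptch; adjusted p = 0.334) without overlap. Abca1 stood at 0.68 (10.82, 11.16, 10.35 and 9.80 in GFI-Ptch, against 10.09 and 9.62 in GFD-Ptch; adjusted p = 0.476). Mvd stood at -0.47 (8.99, 8.94, 8.91 and 9.46 in GFI-Ptch, against 9.63 and 9.46 in GFD-Ptch; adjusted p = 0.311). In 2 members, Scd1 and Elovl5, all GFI-Ptch arrays lay above both GFD-Ptch arrays (6.06%, against 6.98% of all genes), and in 1, Pmvk, all lay below (3.03%, against 9.48%). The sterol genes had a median of -0.15 with 13 of 17 below 0. Without the transplanted tumour the median was -0.38, 17 of 17 were below 0 and Mvd was called, with 0.236% of all genes called. Of 30 other pathway genes 0 were called, with Lcat (0.78) and Me1 (0.52) the largest changes. The endothelial markers averaged 7.59 to 8.24 in GFI-Ptch and 8.32 to 8.42 in GFD-Ptch, without overlap (median change -0.53). The muscle, astrocyte, and microglia and macrophage markers had median changes of 0.74, 0.55 and 0.46, and their array means overlapped. None of these markers was called, and their part was not tested.

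The last comparison set NG tumours of the Smo model against those of the Ptch model. In NG-Smo 0 of 33 members were called against NG-Ptch, where 1.04% of all genes were, and the median change was 0.02. In 0 members all NG-Smo arrays lay above all NG-Ptch arrays, against 2.97% of all genes, and in 1 all lay below (3.03%, against 2.68%). Tm7sf2 came nearest, at 8.51, 8.06, 8.21 and 8.55 in NG-Smo, against 8.86, 8.90, 9.06 and 8.92 in NG-Ptch. These arrays did not overlap (-0.60, adjusted p = 0.0931), and Tm7sf2 and Hsd17b7 were called without the transplanted tumour, with 1.93% of all genes called. Abcg1 read 10.66, 10.03, 10.56 and 10.61 in NG-Smo, against 10.16, 9.78, 9.94 and 9.80 in NG-Ptch (0.55, adjusted p = 0.151). Srebf1 read 10.68, 9.61, 11.16 and 10.92 in NG-Smo, against 11.15, 10.85, 11.23 and 11.00 in NG-Ptch (-0.46, adjusted p = 0.567), and NG-Smo replicate 2 was the lowest of these 8 arrays. Of the other pathway genes Dhdds fell (-0.47, adjusted p = 0.0128) and Mylip rose (0.57, adjusted p = 0.00861). Of the microglia and macrophage markers 3 of 12 were called higher in NG-Smo (9.71 to 9.8, against 9.09 to 9.55 in NG-Ptch). The granule neuron progenitor markers averaged 11.56 to 11.81 in NG-Smo and 11.96 to 12.02 in NG-Ptch, without overlap and with 0 of 10 called. The oligodendrocyte markers had a median change of 0.54 and overlapped, with 0 of 9 called. The part of these cells was not tested.

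For 3 members a second probe set was measured. Both probe sets of Idi1 and of Fdft1 gave changes of the same size to within 0.06, whereas those of Acaca differed in sign in all comparisons among Ptch groups, at sizes of at most 0.11, so that no direction is given for Acaca there.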

How the data were processed

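RNA from the tumours had been hybridised to 18 Affymetrix mouse Gene ST 1.0 arrays after Trizol extraction, per the labels' protocols. The authors deposited log2 values for 35556 probe sets, made with Partek 6.6 per the submitters' processing notes. Background correction, probe summary and scaling are not given in the sources used here, and the base of the log was read from the range of the values (4.219 to 14.32). Array medians were 7.736 to 7.868. Probe sets with exactly 1 gene symbol were kept (21789), each gene was read from its probe set of highest average level, and 19938 genes remained. No filter was applied. The precision of array data is set by the number of arrays.

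A linear model over the 18 arrays was fitted in limma 3.58.1 under R 4.3.3 (with a mean for each group, 13 residual and 2.4483 prior degrees of freedom), with two-sided moderated tests adjusted by Benjamini-Hochberg over all genes. The scripts were tested on simulated data. Summaries, promoter matches and plots were made in Python 3.11.15. The arrays of a pair of groups do not overlap where every array of one lies above every array of the other. Values per array were given for called members or, where none was called, for the 3 with the largest change, and other pathway genes were named where called or, failing that, for the 2 largest changes. The members and lists were chosen with earlier results of these data known. Of 40 other pathway genes 30 were measured, and of 85 cell type markers 83. Alternatives were quantile normalization, median centring, a filter on dim genes, the mean of a gene's probe sets, array weights, the replicate number as a block, gender label as a covariate, only the groups compared, and each array left out, together with 3 chosen after seeing the data.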

Additional observations from a re-analysis of the deposited data

Results flagged for a closer look

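Among the levels of the 33 genes in the 4 groups of 4 arrays, 7 of 132 combinations had 1 array far from the rest of its group by Dixon's criterion, and chance alone would flag about 1 in 20, or 6.6. The transplanted tumour (GFI-Ptch replicate 4) accounted for 3 of the 7 and was the high array in each, with Mvd at 9.46, Fdft1 at 11.69 and Nsdhl at 10.79, against at most 8.99, 11.07 and 9.74 in the other GFI-Ptch tumours. NG-Smo replicate 4 was low in Insig1 (10.16) and NG-Smo replicate 2 was low in Abcg1 (10.03). NG-Ptch replicate 4 was high in Scap (10.75), and GFD-Smo replicate 4 was high in Scd1 (11.37, against at most 11.03 in the other GFD-Smo arrays).

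The change between GFD and NG tumours differed between the Smo and the Ptch model in 3 genes of the pathway by the interaction test in limma. They were among 33 members and 30 other pathway genes tested, and 3.81% of all genes were called by the same test. The differences were 3.9 for Scd1, 0.52 for Fads2 and 0.57 for Dhdds, each more positive in Smo tumours. For Dhdds, which was no member of the list, the levels were 10.05, 10.20, 10.10 and 10.23 in GFD-Smo and 9.97, 9.90, 10.07 and 9.69 in NG-Smo, and 10.19 and 9.91 in GFD-Ptch and 10.36, 10.42, 10.42 and 10.33 in NG-Ptch.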

How the results depend on the processing

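Of 812 re-computed changes of named members, 682 kept their direction and side of the threshold, 114 were no longer called, 9 became called and 7 changed sign. The 7 were in GFI-Ptch minus NG-Ptch, where none was called. Idi1 (0.26) was at -0.08 with array weights, -0.09 with gender label as covariate, and -0.03 without GFI-Ptch replicate 4, without it and NG-Smo replicate 4 together, and without the 3 arrays whose Y-linked genes go against their label. Leaving out 1 array at a time it ran from -0.03 to 0.41. Insig1 (0.26) was at -0.04 with array weights and -0.13 with gender label.

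Leaving out 1 array at a time, the number of called members was 4 to 12 for GFD-Smo minus NG-Smo, 0 to 1 for GFI-Ptch minus GFD-Ptch, 0 to 2 for NG-Smo minus NG-Ptch, 1 to 11 for GFD-Smo minus GFD-Ptch, 0 to 3 for the difference between models, and 0 for the other 2 comparisons. With both GFD-Ptch arrays kept, the shares of all genes called are given in the same order. They were 3.22% to 7.79%, 0.00502% to 0.236%, 0.376% to 1.93%, 10.4% to 21.9% and 2.13% to 6.44%, and at most 0.722% for the other 2. The lowest counts for GFD-Smo minus GFD-Ptch and for the difference came from fits with 1 GFD-Ptch array. The count of 8 in GFD-Smo minus NG-Smo, with 5.31% of all genes called, was 4 without NG-Smo replicate 1 (4.21%) or GFD-Smo replicate 2 (3.22%) or 4 (4.08%). It was 5 without GFD-Smo replicate 1 or 3, NG-Smo replicate 3 or 4, GFI-Ptch replicate 3, GFD-Ptch replicate 1 or 2, or NG-Ptch replicate 2 or 5. In those fits with both GFD-Ptch arrays, 3.34% to 5.47% of all genes were called. The 2 calls of the difference between models (3.81%) became 1 without NG-Smo replicate 1 (3.32%) or GFD-Smo replicate 2 (2.23%), 3 (2.24%) or 4 (2.78%). They also became 1 without NG-Ptch replicate 1 (2.29%), 2 (2.13%) or 4 (3.23%). Without GFD-Ptch replicate 2 neither the difference of Scd1 (3.80) nor that of Fads2 (0.46) was called, and without GFD-Ptch replicate 1 that of Fads2 (0.59) was not. With 2 GFD-Ptch arrays, leaving out 1 assumes that the other varies like the remaining groups.

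The share of all genes called under the same setting is given in brackets. For GFD-Smo minus NG-Smo the count was 5 with median centring (5.94%), 1 with gender label (1.96%), 2 without the 3 arrays at odds with their label (2.18%) and 5 with the Y-linked level as covariate (4.57%). With array weights it was 1 for GFI-Ptch minus NG-Ptch (0.903%), 1 for GFI-Ptch minus GFD-Ptch (0.13%), 2 for NG-Smo minus NG-Ptch (2.1%), 11 for GFD-Smo minus GFD-Ptch (29.6%) and 5 for the difference (7.44%). Without the transplanted tumour and NG-Smo replicate 4 together it was 1 for GFD-Ptch minus NG-Ptch (3.46%), 1 for GFI-Ptch minus NG-Ptch (0.0502%), 1 for GFI-Ptch minus GFD-Ptch (0.321%), 3 for NG-Smo minus NG-Ptch (5.86%), 12 for GFD-Smo minus GFD-Ptch (29.9%) and 4 for the difference (6.43%). For GFD-Smo minus GFD-Ptch it was 1 with gender label (5.61%), 18 when only the groups compared were fitted (33.6%) and 3 with the Y-linked level (11.9%). Without the 3 arrays at odds with their label it was 1 for NG-Smo minus NG-Ptch (0.908%) and 1 for the difference (2.1%), which was 0 with gender label (0.01%) and 0 with the Y-linked level (0.797%). The settings with both arrays or the 3 arrays left out and the Y-linked level were chosen after seeing the data, and the cause of these changes was not tested.

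Replicate numbers did not pair the arrays. Deviations from group means correlated at -0.310 to 0.187 (median -0.0299) over 29 same-numbered pairs, against a median of 0.0203 over 99 other pairs. With the replicate block the count was 5 for GFD-Smo minus NG-Smo (4.06%) and 1 for the difference (2.09%). Precision is limited by the number of arrays, most of all by the 2 of GFD-Ptch.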
